A study of Bos taurus with 9 samples.

Results

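The genes described here are the receptors through which epithelia receive fibroblast growth factors and the hepatocyte growth factor family: FGFR1, FGFR2, FGFR3, FGFR4, MET and MST1R, together with FGFBP1, a secreted carrier of fibroblast growth factors. They were chosen by name and make up 7 of the 20679 genes in the deposited tables. RNA was sequenced after 5 days of 3D culture of gland fragments isolated from bovine uteri, with 3 libraries in each of 3 groups. The CYST group was grown in Matrigel without epidermal growth factor (EGF) and formed cysts. The MAT group received 5 ng/ml EGF in Matrigel, and the MAT + COL group received the same EGF in Matrigel with 0.5 mg/ml bovine collagen I, and both formed uterine gland-like (UG-LIKE) tubules. All groups shared the same growth factor-reduced Matrigel and a medium with albumin, selenite, insulin, transferrin and ascorbic acid. According to the methods no FGF or HGF was added to these groups. In separate cultures the study added FGF1, FGF2, FGF7 and FGF10 in combination. It reported mainly cysts or aggregates there, and no UG-LIKE structures. The uteri came from an abattoir, and the fragments were whole pieces of gland rather than sorted cells.

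Fibroblast growth factors (FGFs) bind 4 receptor tyrosine kinases, FGFR1 to FGFR4, together with heparan sulfate chains on the cell surface. Epithelia usually carry a splice form of FGFR2 that binds FGF7 and FGF10, which are made by neighbouring stromal cells, and this exchange drives branching and growth in many glands. MET is the receptor of hepatocyte growth factor (HGF), a stromal protein that makes epithelial cells scatter, move and form tubules in gels. MST1R, also called RON, is the closest relative of MET and binds macrophage-stimulating protein, the product of MST1. FGFBP1 releases FGFs held by heparan sulfate in the matrix and so makes them available to receptors.

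Levels are given as TPM, transcript levels corrected for gene length and scaled to the same total in each library, the unit in which the authors deposited each gene's level, and are the scale on which genes are compared with each other. Differences between groups were tested on the deposited read counts with the quasi-likelihood test of edgeR, and p-values were adjusted by the Benjamini-Hochberg method over all genes tested. Each test was made without and with the replicate number as a block, which compares libraries of the same number, because same-numbered libraries deviated from their group means in the same direction. The numbers are those of the sample titles, the library names carry partly other numbers, and the labels do not say whether same-numbered libraries come from the same animal, so every call with the block rests on these numbers. A gene was called when its adjusted p was under 0.05. The libraries held between 6568968 and 17948600 counted reads, with a median of 16665013, and the shallowest was MAT replicate 1. The p-values without the block rest on the spread between libraries of a group. Those with the block rest on the spread left after the replicate number. All 6 epithelium markers examined had counts in every library, with KRT19 and KRT8 highest, and summed to 16649 to 43306 TPM. The 8 stroma markers also had counts in every library and summed to 1191 to 4798 TPM. Counts alone therefore do not show that only epithelium was present. FOXA2, a transcription factor of uterine glands, was low, at 1.31 to 12.4 TPM.

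FGFBP1 was higher in every tubule library than in every cyst library. It lies on chromosome 6 at 111124001 to 111137854 (ARS-UCD2.0 assembly, minus strand) under the identifier ENSBTAG00000031497. Its level in the CYST libraries 1, 2 and 3 was 151, 67.2 and 198 TPM. In MAT it was 367, 307 and 527 TPM. In MAT + COL it was 261, 259 and 494 TPM. The lowest library with EGF, MAT + COL replicate 2, was above the highest CYST library, replicate 3, so neither EGF group overlapped with CYST. Such separation from CYST was found in 23.7% of all genes tested for MAT and 24.7% for MAT + COL. The mean was 139 ± 66.4 TPM in CYST, 400.2 ± 114 TPM in MAT and 338 ± 135 TPM in MAT + COL (SD, n = 3 each). Within the same-numbered pairs the MAT level was 2.42, 4.56 and 2.66 times that of CYST. Without the block the log2 fold change was 1.46 (SE 0.46, 95% interval 0.41 to 2.52, edgeR adjusted p = 0.126), which missed the threshold. With the block it was 1.61 (SE 0.24, 95% interval 1.05 to 2.17, edgeR adjusted p = 0.0118), a 3.05-fold higher level in MAT. The deposited gene model spans 13854 bp of the genome and the RefSeq model of the same gene 2977 bp. The TPM of FGFBP1 may depend on the model used, but these spans do not give the transcript length. The differences between groups do not involve length.

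MET was the most abundant of the receptors in most libraries and was higher in tubules in every same-numbered pair. It lies on chromosome 4 at 51622340 to 51735566 (minus strand, ENSBTAG00000006161). MET was at 144, 232 and 94.9 TPM in CYST replicates 1, 2 and 3. The MAT libraries had 202, 347 and 195 TPM, and the MAT + COL libraries 287, 357 and 199.9 TPM. The groups overlapped, because CYST replicate 2 was above MAT replicates 1 and 3. Replicate 2 was the highest and replicate 3 the lowest in every group, so MET differed between replicate numbers as well as between conditions. Of all genes tested, 49.8% kept the same direction in every pair of MAT and CYST. For MAT + COL and CYST this share was 49.5%. Within pairs the MAT level of MET was 1.40, 1.5 and 2.05 times the CYST level. The log2 fold change was 0.69 (SE 0.32, 95% interval -0.04 to 1.41, edgeR adjusted p = 0.266) without the block. The estimate with the block was the same, 0.69, with a smaller error (SE 0.16, 95% interval 0.31 to 1.07, edgeR adjusted p = 0.0388).

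MST1R was present at a lower level than MET and did not overlap between cysts and tubules. It lies on chromosome 22 at 50356737 to 50370263 (plus strand, ENSBTAG00000015046). The CYST libraries had 4.77, 9.80 and 8.43 TPM of MST1R, the MAT libraries 13.7, 16.9 and 21.4 TPM, and the MAT + COL libraries 14.1, 20.3 and 25.6 TPM. All 6 libraries with EGF were above all 3 without it. No overlap with CYST was found for 23.7% of all genes tested in MAT and 24.7% in MAT + COL. The mean was 7.66 ± 2.60 TPM in CYST, 17.3 ± 3.86 TPM in MAT and 20.0 ± 5.80 TPM in MAT + COL (SD, n = 3 each). The pairs had 2.87, 1.72 and 2.54 times as much MST1R in MAT as in CYST. The log2 fold change was 1.16 (SE 0.34, 95% interval 0.37 to 1.94, edgeR adjusted p = 0.111) without the block and 1.19 (SE 0.22, 95% interval 0.68 to 1.71, edgeR adjusted p = 0.0211) with it. MET exceeded MST1R in all 9 libraries, by 7.80 to 30.2 times.

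FGFR2 was the main FGF receptor gene in every library, and it was lower in MAT than in CYST in all 3 pairs. It lies on chromosome 26 at 41450677 to 41557725 (minus strand, ENSBTAG00000014064). The CYST libraries had 151, 122 and 53.2 TPM of FGFR2. The MAT libraries had 87.6, 80.8 and 21.7 TPM. The MAT + COL libraries had 173, 116 and 20.3 TPM. Replicate 3 was the lowest of its group in all 3 groups, and because of that spread the groups overlapped. Of all genes tested, 49.8% kept the same direction in all 3 pairs of MAT and CYST. Within pairs the MAT level of FGFR2 was 0.580, 0.662 and 0.407 of the CYST level. Without the block the log2 fold change was -0.76 (SE 0.50, 95% interval -1.92 to 0.39, edgeR adjusted p = 0.436). With the block it was -0.90 (SE 0.22, 95% interval -1.40 to -0.40, edgeR adjusted p = 0.0400). In bulk RNA, fewer cells that carry a transcript and less of it per cell cannot be told apart. Summed epithelium markers were 16649 to 18423 TPM in CYST and 27613 to 43306 TPM in MAT. FGFR2 was lower in MAT within pairs, but its levels in these groups overlapped. Most of the marker sum came from KRT8 and KRT19, with means of 8314 and 7751 TPM in CYST and 15490 and 17274 TPM in MAT. Both were called higher in MAT with the block, so the sum cannot stand for the share of epithelial cells. The part of cell composition in the FGFR2 difference was not tested.

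FGFR4 was low everywhere, and its highest levels were in cysts. It lies on chromosome 7 at 38575599 to 38586371 (plus strand, ENSBTAG00000010543), and its protein is best known as a receptor for FGF19 in liver. CYST replicates 1, 2 and 3 had 3.53, 8.63 and 0.956 TPM of FGFR4, from 43, 204 and 15 counts. The MAT libraries had 0.950, 0.633 and 0.264 TPM, from 9, 16 and 5 counts. The MAT + COL libraries had 1.27, 0.119 and 1.01 TPM, from 31, 3 and 24 counts. CYST and MAT did not overlap, but the lowest CYST library and the highest MAT library were almost equal. These 2 groups did not overlap for 23.7% of all genes tested. The log2 fold change of MAT against CYST was -2.80 (SE 0.82, 95% interval -4.70 to -0.91, edgeR adjusted p = 0.110) without the block and -2.59 (SE 0.61, 95% interval -4.02 to -1.17, edgeR adjusted p = 0.0388) with it. Without CYST replicate 2, the highest library, the log2 fold change without the block was -1.86 (SE 0.88, edgeR adjusted p = 0.362). With levels under 1 TPM in every MAT library, FGFR4 did not meet the criterion of the study for a minimum TPM above 1.

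FGFR1 and FGFR3 were close to the lower end of what these libraries could measure. FGFR1, the FGF receptor usually carried by stromal and endothelial cells, lies on chromosome 27 at 33548577 to 33598482 (minus strand, ENSBTAG00000015457). It was at 2.67, 1.60 and 1.72 TPM in CYST, at 1.24, 0.285 and 2.57 TPM in MAT, and at 1.51, 1.00 and 2.66 TPM in MAT + COL. The groups overlapped, and MAT alone spanned nearly the whole range. The log2 fold change of FGFR1 in MAT against CYST was -0.54 (SE 0.78, 95% interval -2.33 to 1.26, edgeR adjusted p = 0.753), so a large difference in either direction lay within the interval. FGFR1 overlaps LETM2 on the opposite strand, and since the strand setting of the counting is not given in the sources used here, reads of both genes may be mixed. LETM2 itself had 1 to 22 counts per library.

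FGFR3 lies on chromosome 6 at 116767771 to 116791938 (minus strand, ENSBTAG00000007164). It had 4, 7 and 0 counts in CYST, 11, 6 and 16 in MAT, and 22, 15 and 18 in MAT + COL. A count of 0 allows up to 3 counts, and this limit covers counting error only. These counts correspond to at most 0.982 TPM in any library. FGFR3 did not pass the filter on low counts for MAT against CYST. Against CYST, the MAT + COL libraries were all higher, with a log2 fold change of 1.81 (SE 0.93, 95% interval -0.36 to 3.98, edgeR adjusted p = 0.308), and the difference was not detectable at this depth. MAT + COL and CYST did not overlap for 24.7% of all genes tested.

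**Figure D1:**
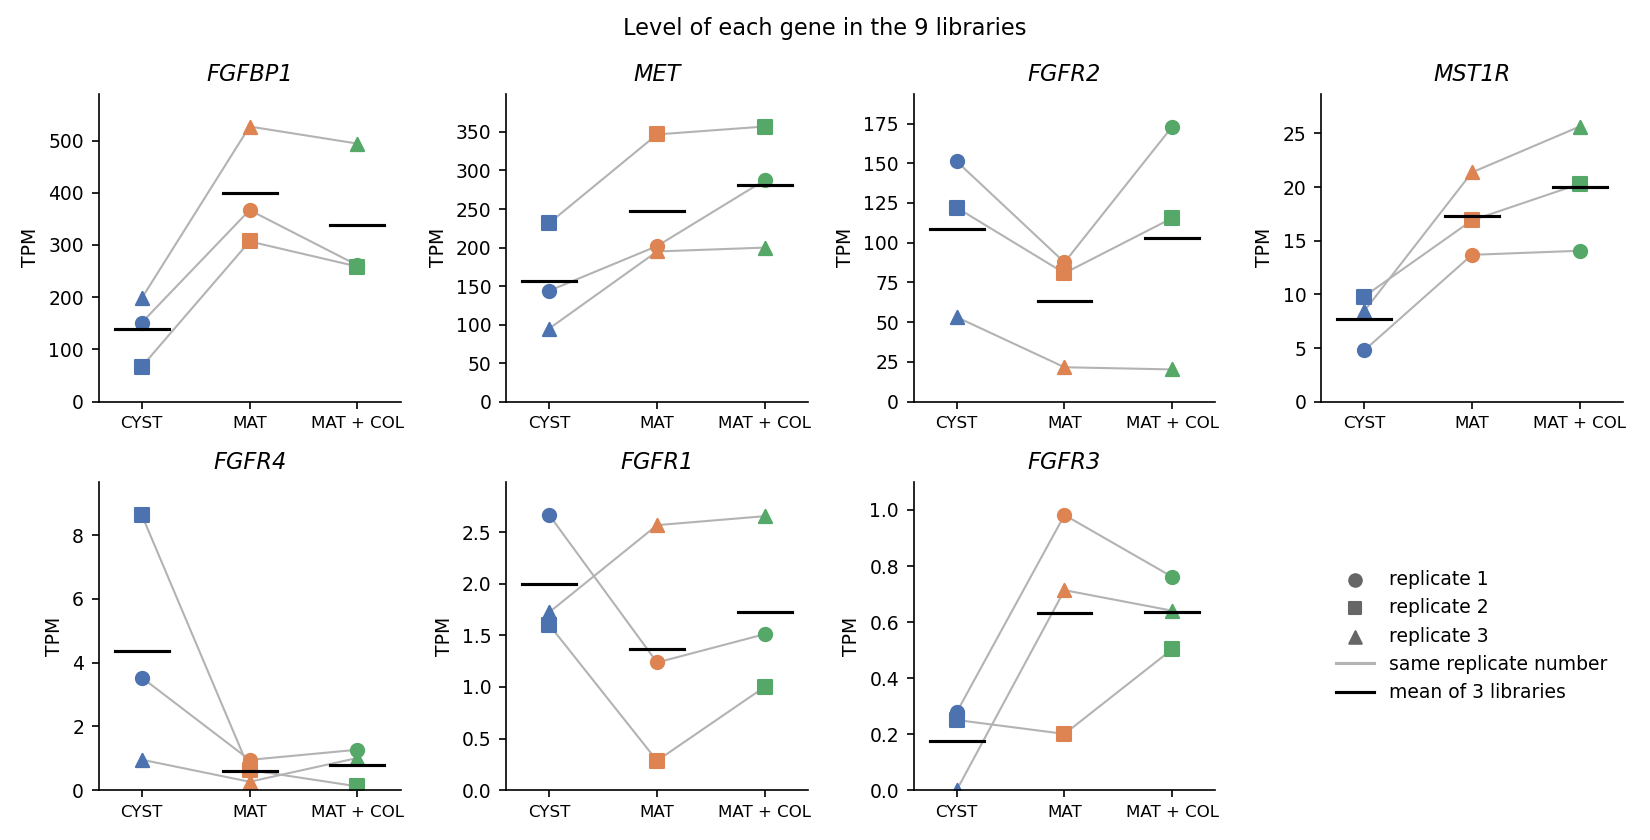
TPM of the 7 genes (vertical axes, each from 0) in the CYST, MAT and MAT + COL libraries, with a marker shape for each replicate number, grey lines joining same-numbered libraries and black bars for group means. FGFBP1 and MST1R are higher in all 6 EGF libraries than in all 3 CYST libraries, and replicate 3 has the lowest FGFR2 in each group.

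Of the 7 genes, 6 passed the low-count filter for MAT against CYST, and all but FGFR1 of these 6 were called with the block. Without the block 0 of 6 were called by edgeR, where 1.79% of the 12074 genes tested were called. In that fit 3 of the 6 had an unadjusted p under 0.05, as did 2496 of all genes tested. With the block 5 of 6 were called, against 10.6% of all genes tested. The higher ones were FGFBP1, MST1R and MET, against 4.9% of all genes called higher. The lower ones were FGFR2 and FGFR4, against 5.67% of all genes called lower. FGFBP1 and MST1R also met the log2 fold change and TPM criteria of the study with the block, which 6.01% of all genes did. DESeq2 without a block called 3 of the 7 genes, FGFBP1 (adjusted p = 0.0115), FGFR4 (adjusted p = 0.0124) and MST1R (adjusted p = 0.0255). That fit called 1218 of 15495 genes. With the block fitted on all 9 libraries neither lower call remained, at edgeR adjusted p = 0.0591 for FGFR2 and 0.0789 for FGFR4. This fit called 2118 of 12858 genes. The levels of CYST and MAT did not overlap for 3 of the 6, namely FGFBP1, MST1R and FGFR4, and this was so for 23.7% of all genes tested.

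The calls with the block depended on the libraries of replicate 1. Without that pair, 0 of these genes were called, with edgeR adjusted p-values from 0.0961 for FGFBP1 to 0.188 for FGFR2, and 36 genes were called in all. All 5 had an unadjusted edgeR p under 0.05 in that fit, as did 2226 of the 12453 genes tested. The log2 fold changes of the 5 kept their signs. Without the pair of replicate 2, FGFBP1 (edgeR adjusted p = 0.0144), FGFR2 (edgeR adjusted p = 0.0363) and MST1R (edgeR adjusted p = 0.0405) were called, whereas FGFR4 (edgeR adjusted p = 0.330) and MET (edgeR adjusted p = 0.156) were not. All 5 were called without the pair of replicate 3, as were 1867 of the 12164 genes tested in that fit. Without the pair of replicate 2, 614 of 12008 genes tested were called.

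No difference between MAT + COL and MAT passed the test for any of these genes when all libraries were used. Without the block 0 of the 12470 genes tested were called by edgeR (0%), with 51 at an unadjusted p under 0.05, and with the block 0 were called (0%), with 618 at an unadjusted p under 0.05. DESeq2 also called 0, with 81 at an unadjusted p under 0.05. None of the 7 genes had groups that did not overlap, a pattern found in 3.57% of all genes tested. For MET the log2 fold change of MAT + COL against MAT with the block was 0.12 (95% interval -0.14 to 0.38), and for MST1R it was 0.12 (95% interval -0.20 to 0.43). FGFBP1 was lower with collagen I in all 3 pairs, at 0.712, 0.843 and 0.938 of the MAT level. Its log2 fold change was -0.35 (95% interval -0.62 to -0.08, edgeR unadjusted p = 0.0147, adjusted p = 0.955). Of all genes tested, 28.3% kept the same direction in all 3 of these pairs.

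FGFR2 differed between replicate numbers in the direction of its difference between MAT + COL and MAT. With collagen I it was at 1.98 and 1.43 times the MAT level in replicates 1 and 2, and at 0.936 of it in replicate 3, the pair with little FGFR2. With the block the log2 fold change was 0.40 (SE 0.17, 95% interval 0.03 to 0.78, edgeR unadjusted p = 0.0361, adjusted p = 0.955). Leaving out the pair of replicate 3 gave a log2 fold change of 0.66 and an edgeR adjusted p of 0.0438. It was the only fit in which MAT + COL against MAT gave a call among these 7 genes, and it called 46 of 12490 genes tested. The intervals of FGFR1, FGFR3 and FGFR4 reached beyond 1 in at least 1 direction, so a difference of more than 1 on the log2 scale was within them.

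The comparison of MAT + COL with CYST shares its libraries with the other comparisons and is not independent of them. Without the block 0 of 7 genes were called by edgeR, where 1.49% of 12509 genes were called. In that fit 4 of the 7 had an unadjusted p under 0.05, as did 2709 of all genes tested. With the block 3 of 7 were called, against 5.26% of all genes, and all 3 were higher, against 2.68% called higher. These were MST1R at a log2 fold change of 1.34 (SE 0.19, edgeR adjusted p = 0.0261), MET at 0.83 (SE 0.15, edgeR adjusted p = 0.0378) and FGFBP1 at 1.28 (SE 0.27, edgeR adjusted p = 0.0497). FGFR2, lower in MAT than in CYST with the block, had a log2 fold change of -0.47 here (SE 0.34, 95% interval -1.29 to 0.35, edgeR adjusted p = 0.422). For FGFR4 it was -2.22 (SE 1.13, edgeR adjusted p = 0.269), and -0.87 (SE 0.90, edgeR adjusted p = 0.722) without the pair of replicate 2. Without the pair of replicate 3 it was -3.35 (edgeR adjusted p = 0.0477), in a fit that called 2406 of 12600 genes tested. DESeq2 called FGFR4 without a block (adjusted p = 0.0490) but not with it (adjusted p = 0.0724). These fits called 1419 and 1850 of 15667 genes. The levels did not overlap for FGFBP1, MST1R and FGFR3, and this was so for 24.7% of all genes tested. None of the 3 calls was made without the pair of replicate 1 or without that of replicate 2, where the lowest edgeR adjusted p among the 3 was 0.0645 for FGFBP1.

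By level per length, MET, FGFR2 and FGFBP1 stood above MST1R in 8 of 9 libraries, and FGFR1, FGFR3 and FGFR4 stood below it in all 9. MET ranked between the 92.3rd and 98.0th percentile of all genes in the 9 libraries, FGFBP1 between the 87.5th and 98.8th, and FGFR2 between the 73.7th and 94.8th. MST1R followed at the 56.8th to 77.0th percentile, and it was above FGFR2 in MAT + COL replicate 3. FGFR4, FGFR1 and FGFR3 were at the 34.7th to 62.7th, 39.4th to 51.7th and 16.7th to 44.6th percentiles, ranges that overlap. MET and FGFBP1 did not have a fixed order, with FGFBP1 above MET in 5 of 9 libraries.

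FGFR2 supplied 82.5% to 98.6% of the summed TPM of the 4 FGF receptor genes, with a median of 95.9%. The lowest share was in MAT + COL replicate 3, where FGFR2 itself was lowest. FGFR1 supplied at most 10.8% and FGFR4 at most 6.51%. MET was above FGFR2 in 8 of 9 libraries, and CYST replicate 1 was the exception with a ratio of 0.952. The ratio of MET to FGFR2 was 0.952 to 1.90 in CYST, 2.30 to 9.0 in MAT and 1.66 to 9.86 in MAT + COL. The MAT ratios were all above the CYST ratios, whereas those of MAT + COL replicate 1 and CYST replicates 2 and 3 overlapped. In every pair the ratio was higher with EGF than without.

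**Figure D2:**
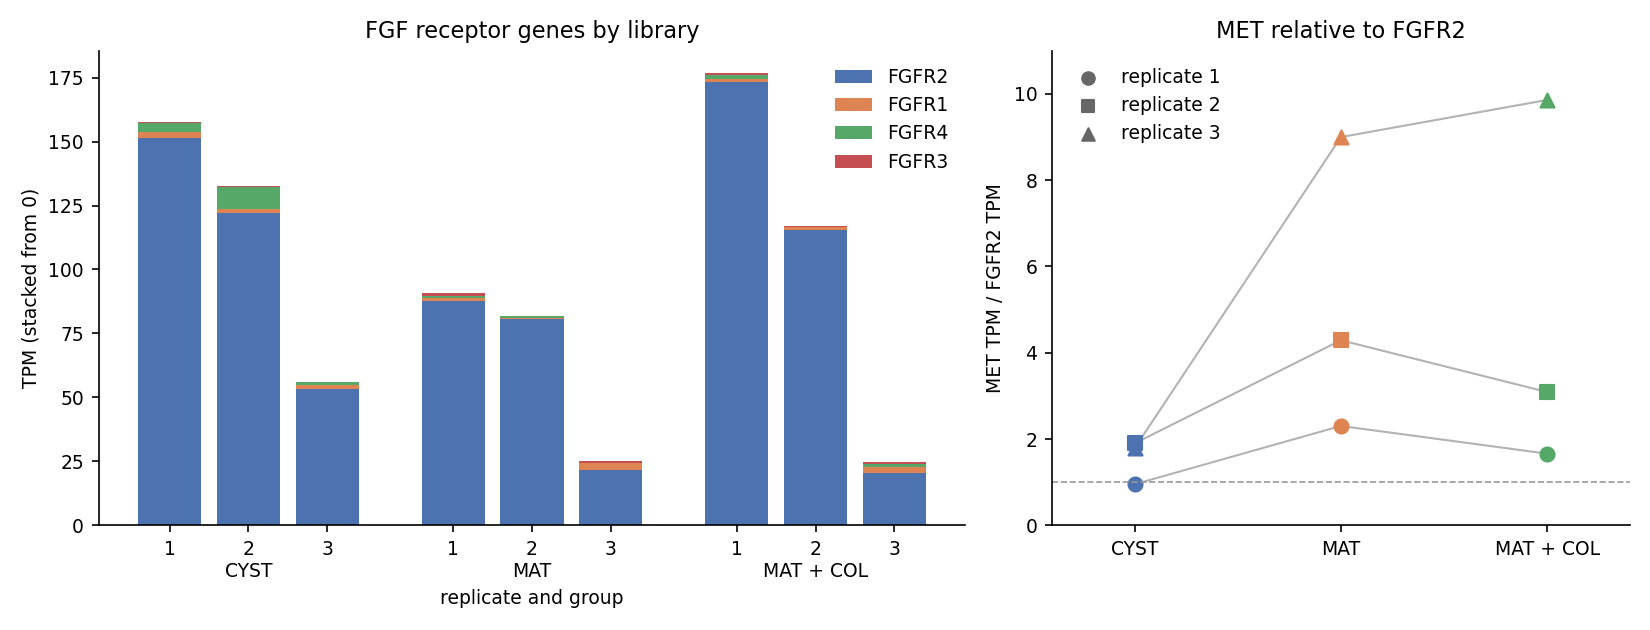
Left, stacked TPM of FGFR1 to FGFR4 in each library, and right, the ratio of MET TPM to FGFR2 TPM by group, with a dashed line at 1 and grey lines joining same-numbered libraries. FGFR2 fills 82.5% to 98.6% of each bar, and the ratio runs from 0.952 in CYST replicate 1 to 9.86 in MAT + COL replicate 3.

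Transcripts of the ligands of these receptors were scarce in the cultures, and ligand protein was not measured. Of 18 FGF genes examined, 7 had no count in any library and 4 had a mean above 1 TPM, and all 18 summed to 8.08 to 16.6 TPM per library. FGF7, the stromal ligand of epithelial FGFR2, had the highest mean over all 9 libraries, at 3.67 ± 1.94 TPM in CYST, 3.66 ± 3.09 TPM in MAT and 4.50 ± 2.55 TPM in MAT + COL (SD, n = 3 each). FGF10, which binds the same form of FGFR2, had 0 to 2 counts per library and was not detectable at this depth. FGF21, a hormone-like FGF that needs the co-receptor KLB, had 5.07, 4.26 and 2.07 TPM in CYST and 0.686, 2.06 and 1.54 TPM in MAT. The FGF21 levels of CYST and MAT did not overlap, by a narrow margin, and the log2 fold change was -1.31 (SE 0.81, edgeR adjusted p = 0.334 with the block). CYST and MAT did not overlap for 23.7% of all genes tested. Only 3 FGF genes passed the low-count filter for MAT against CYST, and 0 were called.

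HGF was also low, whereas some of the genes that control its activation were high. HGF had 3.89, 7.62 and 4.07 TPM in CYST, 2.09, 2.25 and 5.20 TPM in MAT, and 5.36, 5.18 and 4.22 TPM in MAT + COL. These groups overlapped, and the log2 fold change of MAT against CYST with the block was -0.78 (SE 0.40, edgeR adjusted p = 0.254). MST1, the gene of the MST1R ligand, was at 0.201 to 1.07 TPM. HGF is secreted as an inactive precursor and cut by proteases such as matriptase, the product of ST14, which was at 265 ± 15.9 TPM in CYST, 279 ± 46.0 TPM in MAT and 292 ± 25.4 TPM in MAT + COL (SD, n = 3 each). Of the genes of other proteases that can cut it, chosen here after their values were seen, HPN was at 46.2 to 77.0 TPM. HGFAC was at 0.229 to 2.35 TPM, and PLG had no count in any library. SPINT2, an inhibitor of these proteases, was at 887, 744 and 733 TPM in CYST and at 1476, 1195 and 1319 TPM in MAT. All MAT libraries were above all CYST libraries for SPINT2, with a log2 fold change of 0.74 (SE 0.16, edgeR adjusted p = 0.0307 with the block and 0.0781 without). MAT and CYST did not overlap for 23.7% of all genes tested. Of the 8 genes of this list, 6 were tested for MAT against CYST, 0 were called without the block and SPINT2 alone with it. The SPINT2 call was lost without the pair of replicate 1 or of replicate 2, with edgeR adjusted p-values of up to 0.187.

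CD44 was the only gene of the lists around the receptors that edgeR called without a block. CD44 is a surface receptor for hyaluronan, and some of its splice forms present HGF to MET. It had 73.1, 77.7 and 49.7 TPM in CYST, 198, 173 and 143 TPM in MAT, and 155, 127 and 129 TPM in MAT + COL. Every EGF library was above every CYST library. Separation from CYST was found for 23.7% of all genes tested in MAT and 24.7% in MAT + COL. CD44 rose in MAT with a log2 fold change of 1.36 (SE 0.19, edgeR adjusted p = 0.0256). The estimate with the block was also 1.36 (SE 0.16, edgeR adjusted p = 0.00513), and this call was lost without the pair of replicate 1 (edgeR adjusted p = 0.0855). CD44 was also higher in MAT + COL than in CYST, with a log2 fold change of 0.99 (SE 0.16, edgeR adjusted p = 0.0383). With the block and a pair left out, CD44 was called there only without the pair of replicate 3, with edgeR adjusted p-values of up to 0.125. With 1 library left out, edgeR without the block called CD44 in MAT against CYST without CYST replicate 3 or MAT replicate 3 but not without any other library, with adjusted p-values of 0.0354 to 0.103, and in MAT + COL against CYST in none of these 6 fits, with adjusted p-values of 0.0527 to 0.160.

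Among the 15 partners and regulators of MET and MST1R, all were tested for MAT against CYST, and the median log2 fold change with the block was 0.33, beside 0.01 over all genes tested. CD44 was called higher and DCN, a matrix proteoglycan that can bind MET, lower at a log2 fold change of -1.12 (SE 0.23, edgeR adjusted p = 0.0252 with the block and 0.376 without). The call of DCN, too, was made without the pair of replicate 3 but not without either of the others, with edgeR adjusted p-values of up to 0.118. DCN is made by stromal cells and also stands among the stroma markers. ITGA6, a laminin receptor subunit that pairs with the MET partner ITGB4, was at 243 ± 76.4 TPM in CYST and 341 ± 67.8 TPM in MAT (SD, n = 3 each) and was not called.

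The remaining pathway genes gave few calls. Of 17 heparan sulfate proteoglycans and modifying enzymes, 14 were tested and 0 called with or without the block in edgeR, with a median log2 fold change of 0.18 with the block. The syndecans SDC4 and SDC1, carriers of heparan sulfate on epithelial cells, were at 319 ± 55.3 and 234 ± 33.7 TPM in CYST and at 292 ± 78.0 and 289 ± 31.8 TPM in MAT (SD, n = 3 each). Of 9 FGF receptor partners, 6 were tested and 0 called, and FLRT2 and KLB, the highest, had means of 2.28 to 5.00 TPM in the groups. Of 15 adaptors, 0 were called, with a median log2 fold change of 0.16 with the block, and STAT3 and SHC1 were the highest.

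Feedback and output genes shared between receptors gave a single call. MAT received EGF and CYST did not, so their levels cannot be assigned to the FGF or HGF receptors. DUSP6, a phosphatase induced by ERK signalling, was at 189 ± 85.2 TPM in CYST, 212 ± 76.0 TPM in MAT and 210.1 ± 88.9 TPM in MAT + COL (SD, n = 3 each), with a log2 fold change of 0.19 in MAT against CYST (SE 0.35, edgeR adjusted p = 0.767 with the block). ETV4, a transcription factor downstream of FGF receptors, was at 31.5 ± 23.7 TPM in CYST and 16.1 ± 6.48 TPM in MAT (SD, n = 3 each) and was not called. Of 9 feedback and output genes tested, 1 was called with the block and 0 without. It was SPRY3, named after its values were seen, which was at 4.03, 4.48 and 1.45 TPM in CYST and at 0, 0.414 and 0.528 TPM in MAT (log2 fold change -3.31, SE 0.84, edgeR adjusted p = 0.0468 with the block). Its call was lost without the pair of replicate 1 or of replicate 2, with edgeR adjusted p-values of up to 0.160.

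Transcripts of the factors that set which exon of FGFR2 is used were present, while the exon itself cannot be read from gene-level counts. ESRP1 and ESRP2, which favour the epithelial exon, were at 41.7 ± 8.77 and 31.2 ± 5.53 TPM in CYST, 49.2 ± 5.96 and 40.5 ± 10.8 TPM in MAT, and 52.7 ± 5.07 and 48.3 ± 5.04 TPM in MAT + COL (SD, n = 3 each). Of the 4 regulators examined, 0 were called for MAT against CYST. PTBP1, which represses exons in many transcripts, was the highest, at 221 ± 42.2 TPM in CYST and 166 ± 15.9 TPM in MAT (SD, n = 3 each, log2 fold change -0.41, edgeR adjusted p = 0.132 with the block).

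**Figure D3:**
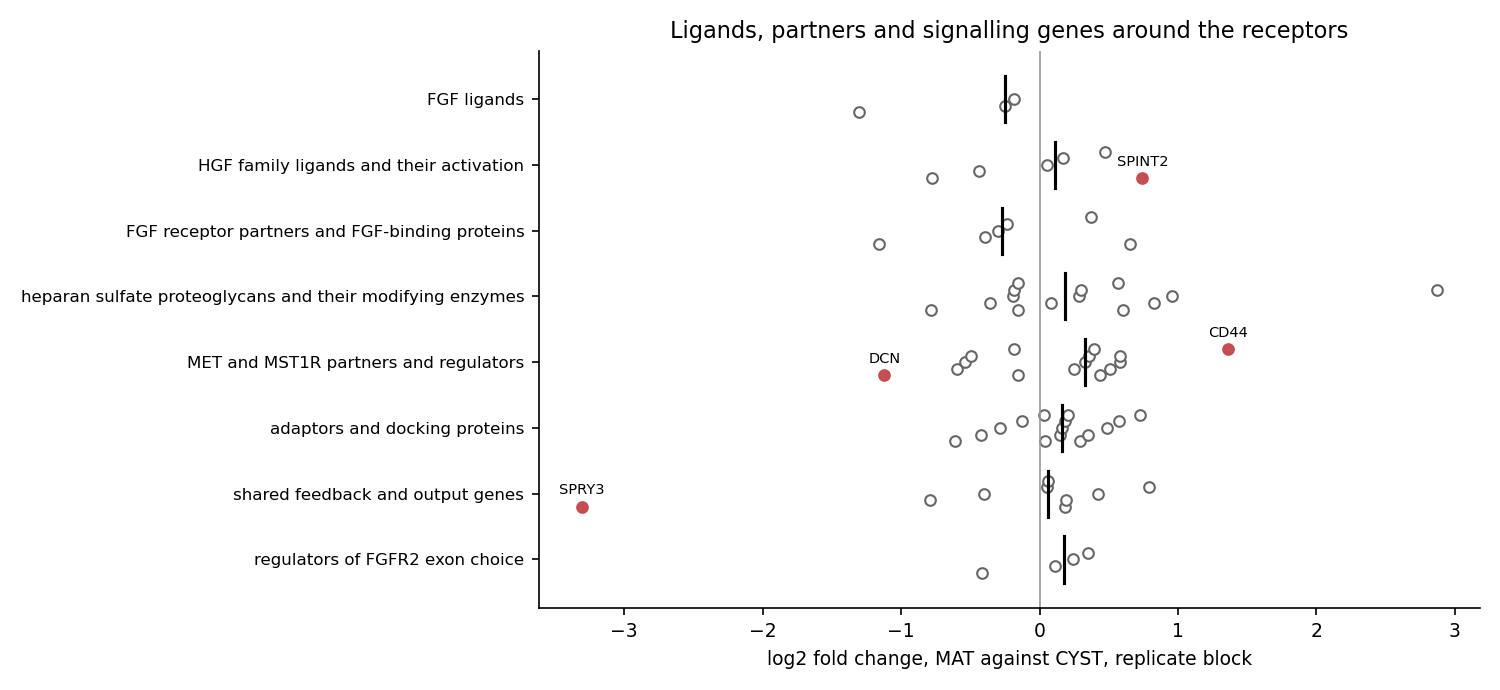
Log2 fold change of MAT against CYST with the replicate block (horizontal axis) for each tested gene of 8 lists around the receptors, with a black bar at each list's median and red points for an adjusted p under 0.05. The called genes are SPINT2, CD44, DCN and SPRY3, and all other genes shown are open points.

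FGFR1 had a pattern across libraries that was most like that of PECAM1. Over the 9 libraries and 12858 genes, the Pearson correlation of log2 levels was highest with PECAM1 at 0.972, followed by TCF4 at 0.967 and ADGRF5 at 0.963. PECAM1, an adhesion protein of endothelial cells, was at 6.11, 2.64 and 6.71 TPM in CYST, 3.18, 0.265 and 8.56 TPM in MAT and 4.31, 2.39 and 8.32 TPM in MAT + COL. MAT replicate 2 was the lowest library for both genes. The 5 endothelium markers summed to 13.1 to 19.4 TPM in CYST, 8.33 to 26.4 TPM in MAT and 14.3 to 28.5 TPM in MAT + COL, with VWF and PECAM1 highest. All 5 had counts in 8 of 9 libraries and 4 of 5 in MAT replicate 2. The part of endothelial cells in the FGFR1 level was not tested.

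FGFBP1 was most like GPRC5A at 0.989, TMEM106A at 0.987 and ALDH1A3, an enzyme of retinoic acid synthesis, at 0.975. GPRC5A, a retinoic acid-induced membrane protein, was at 28.0, 17.4 and 33.1 TPM in CYST and at 59.6, 49.8 and 62.1 TPM in MAT, in nearly the same order of libraries as FGFBP1. For MET the closest genes were ARMC10 at 0.988 and TRIM2 at 0.986. For MST1R they were R3HDM4 at 0.987, TNKS at 0.982 and SLC22A18 at 0.979. FGFR2 was closest to an unnamed gene, ENSBTAG00000015248, at 0.990, SCG3 at 0.982 and ARL14EP at 0.976. The closest genes to FGFR4 were VCP at 0.966, AGFG2 at 0.951 and DPP3 at 0.946, and those to FGFR3 were CASZ1 at 0.982 and CHPF2 at 0.965. These correlations describe 9 libraries that share 3 replicate numbers and 3 conditions, and each is picked as the highest over the genes searched.

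**Figure D4:**
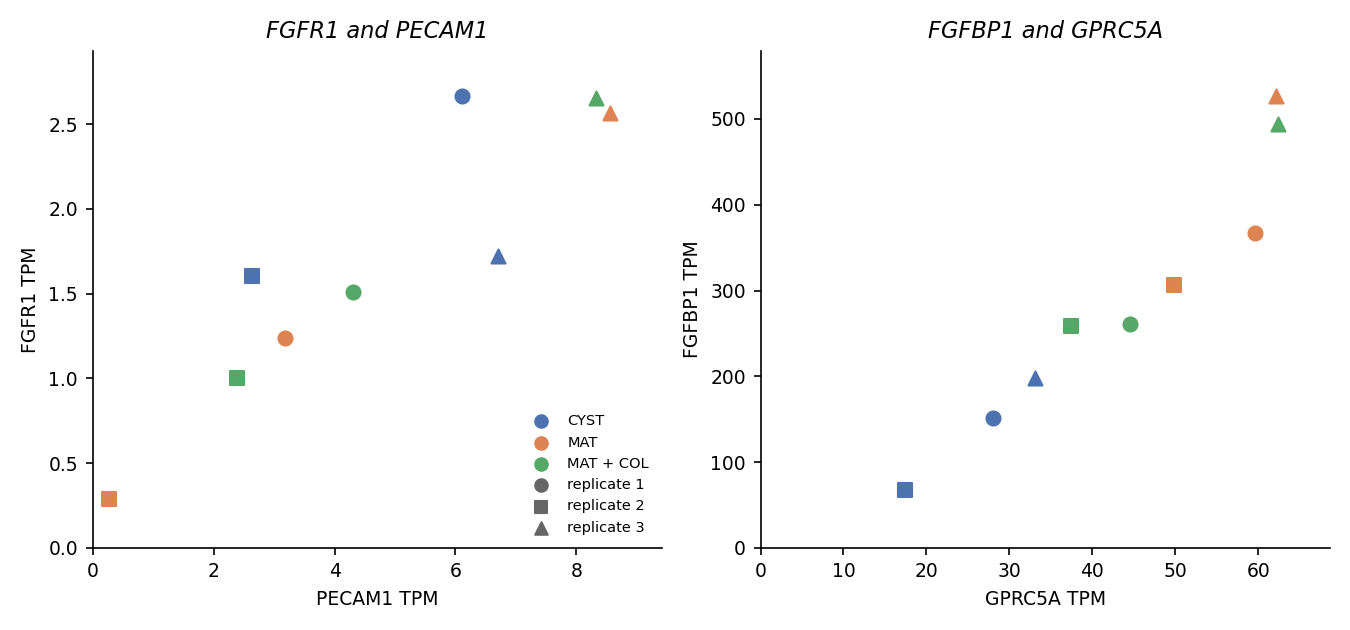
TPM of FGFR1 against PECAM1 (left) and of FGFBP1 against GPRC5A (right) in the 9 libraries, with colours for groups and shapes for replicate numbers. MAT replicate 2 is lowest for both FGFR1 and PECAM1, and the CYST libraries are the 3 lowest for both FGFBP1 and GPRC5A.

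Some markers of epithelium, stroma and smooth muscle were called between MAT and CYST with the block, and 0 markers of any list were called by edgeR without it. With the block, 3 of 6 epithelium markers were called higher in MAT than in CYST, with a median log2 fold change of 0.73. They were KRT19 (1.09), KRT8 (0.88) and EPCAM (0.70, named after its values were seen). The 8 stroma markers summed to 2225 to 4798 TPM in CYST, 1191 to 3742 TPM in MAT and 2197 to 4249 TPM in MAT + COL, with a median log2 fold change of -0.77 with the block and DCN and COL3A1 highest. VIM, also named after its values were seen, was called higher at 1.05 against this direction, and DCN lower. The 4 smooth muscle markers summed to 140 to 179 TPM in CYST and to 38.0 to 83.5 TPM in MAT, and TAGLN was called lower at -1.57 with the block. The calls of KRT19, KRT8 and EPCAM were lost without the pair of replicate 1 or of replicate 2, and those of VIM and TAGLN without the pair of replicate 1, with edgeR adjusted p-values of at most 0.239. The 5 immune markers summed to 19.6 to 48.3 TPM over all libraries, with CD14 and CD68 highest and 0 called. All 8 stroma and all 4 smooth muscle markers had counts in every library, and the part of these cells in the levels of HGF, FGF7, FGFR1 and the other genes was not tested.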

How the data were processed

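RNA from 9 cultures was sequenced with the SMART-Seq HT PLUS kit. Reads were trimmed and mapped by the authors to ARS-UCD2.0 with CLC Genomics Workbench at its defaults, and the deposited counts are unnormalized reads per gene. They also deposited TPM, which is scaled to gene length and library size. The annotation release and the strand setting are not given in the sources used here. Groups and replicate numbers came from the sample titles, and doses from the methods.

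The genes and lists were chosen with earlier results of these data known. List genes were named if called without a block, if among the 2 highest of a list by mean TPM, or if background concerned them. Tests on the counts used edgeR 4.0.16 in R 4.3.3 (filterByExpr with a minimum count of 10, TMM, quasi-likelihood test, Benjamini-Hochberg adjustment) on the 6 libraries of each comparison. Intervals used the standard error from the F statistic. Same-numbered libraries had deviations from their group means that correlated at 0.29 to 0.67 in every pair, above the limit of 0.1, so the numbers were taken to pair the libraries. This rests on the data, since the labels name no shared animal and the library names carry partly other numbers. The methods name no pairing, but the study describes its dendrogram of MAT and MAT + COL as split by individuals. Likeness was the Pearson correlation of log2 CPM (prior count 2), and some of the nearest genes are not reported here. Alternatives were DESeq2 1.42.0, RLE size factors, no low-count filter, the block, all 9 libraries in the fit, limma 3.58.1 on log2(TPM + 1) and log2(TPM + 0.1), and leaving out each library. The tests were checked on simulated data. Reads carried no molecular identifiers. Gene positions are those in the files, and RefSeq spans come from a table for ARS-UCD2.0, where all 7 genes matched by symbol. Figures were drawn with matplotlib 3.10.9.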

Additional observations from a re-analysis of the deposited data

How the results depend on the processing

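Genes with an adjusted p under 0.05 in MAT against CYST numbered 216 in edgeR without a block, 1218 with DESeq2, 1277 with the replicate block, 580 with all 9 libraries in the fit, 71 with limma on log2(TPM + 1) without a filter, and 5 to 267 when 1 library was left out. In MAT + COL against CYST they numbered 186, and 1419, 658, 601, 53 and 3 to 186 under the same alternatives. Fits that combined the block with all 9 libraries, with DESeq2 or with a pair left out were chosen after seeing the data. In MAT against CYST the block called 2118 of 12858 genes with all 9 libraries and 1933 of 15495 in DESeq2. In MAT + COL against CYST these fits called 2035 of 12858 and 1850 of 15667. Of the receptors and FGFBP1, 0 were called in MAT against CYST, and 3 with DESeq2, 5 with the replicate block, 3 with the block and all 9 libraries (FGFBP1, MET and MST1R, with FGFR2 and FGFR4 lost), 5 with the block in DESeq2, and 0 to 5 with a library or pair left out. In MAT + COL against CYST 0 were called, and 2 with DESeq2, 3 with each of the fits with the block on all pairs, and 0 to 4 with a library or pair left out. In MAT + COL against MAT the range was 0 to 1. Beyond the calls named here and above, the block changed no call of these genes in edgeR.

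In MAT + COL against MAT the log2 fold change of FGFR3, -0.04, became 0.13 with the block, 0.0302 with limma without a filter, 0.0490 with the block and all 9 libraries, and 0.15 with the block in DESeq2, and that of FGFR4, 0.34, became -0.0031 with the block in DESeq2. With 1 library left out and no block, the log2 fold changes ranged from -0.26 to 1.23 for FGFR1, -0.48 to 0.35 for FGFR3, -0.0668 to 0.84 for FGFR4, -0.11 to 0.42 for MET and -0.13 to 0.38 for MST1R. With the block and a pair left out they ranged from -0.34 to 0.47 for FGFR3, -0.88 to 1.03 for FGFR4 (-0.12 without replicate 1) and -0.0078 to 0.19 for MET. In MAT + COL against CYST they ranged from -0.78 to 0.0042 for FGFR1 and -0.67 to 0.33 for FGFR2 without the block, and from -0.79 to 0.0471 for FGFR2 with it. The cause was not tested. FGFR1, FGFR3 and FGFR4 rest on few counts, which limits all statements on them, and no other log2 fold change of the 7 genes changed sign under these alternatives.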
